A study of Danio rerio with 6 samples.

Results

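Of 23368 CTCF sites of wild-type (WT) zebrafish embryos at 48 hpf (h post fertilization), 801 (3.43%) were isolated, with no other such site within 100 kb on either side. A site here is a region of overlapping peaks, by at least 1 bp, that holds a peak of each WT 48 hpf replicate. Sites on chromosomes 1 to 25 were considered, leaving out chromosome 4 from 30 Mb on, which left 23368 of the 23959 sites in all. The isolated sites were chosen by the measured peak positions of the WT 48 hpf lists, so their gaps and their strength in those lists are given as a description. The WT 24 hpf and ctcf-/- lists had no part in the choice. The other 22567 sites of the same chromosomes serve for comparison.

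CTCF was profiled by ChIPmentation, a ChIP-seq protocol that uses Tn5 transposase to attach sequencing adapters while the chromatin is still bound to the antibody. Whole embryos were used in 3 groups of 2 replicates each, ctcf-/- at 48 hpf, WT at 48 hpf and WT at 24 hpf, with an antibody raised against a C-terminal part of zebrafish CTCF. The ctcf-/- embryos are zygotic knockouts that carry a CRISPR/Cas9 deletion in the ctcf gene and received CTCF protein from their mothers early in development. The paper no longer detected nuclear staining of this maternal protein in ctcf-/- embryos at 24 hpf, and its western blot at 48 hpf found no CTCF. It held some residual function of the protein at 24 hpf to be possible. By ChIPmentation it also reported that a small group of strong sites kept CTCF in 48 hpf ctcf-/- embryos, while most lost it. For ChIPmentation the paper's methods give 100 embryos at 24 hpf and no number at 48 hpf. A library of whole embryos averages over all tissues, and fewer bound cells cannot be told apart from weaker binding in each cell.

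CTCF is a zinc-finger protein that binds a long, directional DNA motif. In vertebrates it halts the cohesin complex while cohesin extrudes chromatin into loops, and CTCF sites are found at the anchors of many loops and at the boundaries between topologically associating domains. The motif, its orientation and the genes around the sites were not analysed here, because no genome of the build of the files (danRer10, GRCz10) was used.

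The libraries differed in depth, which bears on each overlap given here. The lists hold 2717 and 1706 peaks for ctcf-/- replicates 1 and 2, 31014 and 33130 for WT 48 hpf, and 67512 and 26350 for WT 24 hpf. The lowest background in a list, a measure of its depth, was 8.50 and at most 4.00 tags per 10 kb in the ctcf-/- libraries. It was 19.8 and 17.9 tags per 10 kb in the WT 48 hpf libraries, and 44.0 and 12.4 in the WT 24 hpf libraries. With 2 libraries per group, an exact test between groups of libraries cannot give a two-sided p under 0.333, and sites are not replicates, so shares are compared without a p-value.

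The gaps around the isolated sites were first measured, edge to edge. The smaller of the gaps at a site had a median of 130.6 kb, with quartiles of 112.8 and 165.0 kb, and reached 449.2 kb. The larger gap had a median of 219.3 kb and reached 1122 kb. Most isolated sites therefore lay near the limit, with 265 (33.1%) over 150 kb from any other site, 107 (13.4%) over 200 kb, 23 over 300 kb and 5 over 400 kb. The larger gap exceeded the smaller by a median of 1.47 times, and Spearman's rho between the left and right gaps was 0.08 over the 801 sites, some of which share a gap. The smaller gap of other sites had a median of 14.6 kb and their larger gap a median of 55.4 kb.

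**Figure D1:**
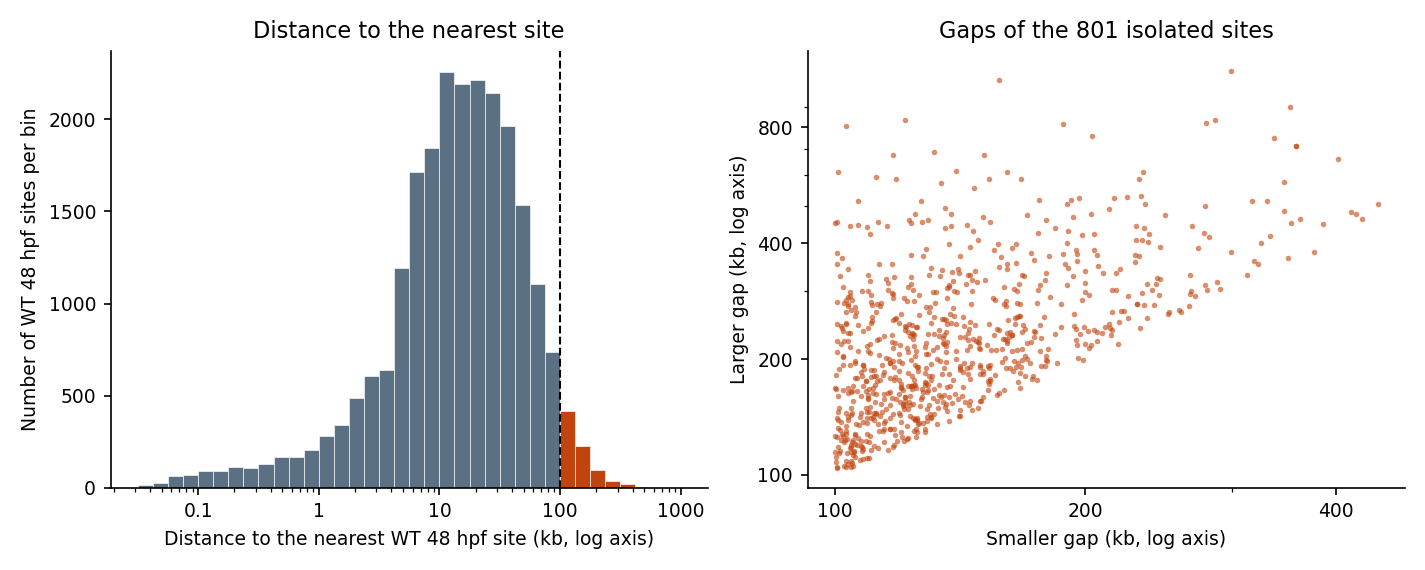
Left, number of WT 48 hpf sites by the distance to their nearest site in kb on a log axis, with a dashed line at 100 kb and the isolated sites in red. Right, smaller against larger gap in kb of each of the 801 isolated sites, both on log axes. The smaller gaps crowd just above 100 kb, with a median of 130.6 kb, while the larger gaps spread up to 1122 kb.

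At the limit of the rule, the smaller gap was 100.1 kb at the closest site inside it and 100.2 kb at the next pair, which are neighbours on chromosome 3. The closest sites outside it had smaller gaps of 99.9, 99.8 and 99.6 kb. The sites inside had mean percentiles of fold enrichment of 69.3, 94.1 and 47.5 in the WT 48 hpf lists, and those outside had 79.7, 30.2 and 59.7. Strength is ranked in this way throughout, as the percentile of a peak's fold enrichment among all peaks of its list.

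Gaps between sites take up much of the genome in this set. Of the 23343 gaps between neighbouring sites, with a median of 31.4 kb, 3524 (15.1%) were longer than 100 kb and covered 50.8% of the 1292 Mb spanned. An isolated site bordered 1385 of these long gaps, at both ends of 216 and at 1 end of 1169. The other 2139 long gaps separated sites that had a closer neighbour on their other side or, at the end of a chromosome, no neighbour there. The gaps beside isolated sites had a median of 162.0 kb and covered 273.9 Mb, or 21.2% of the span, and 33 exceeded 500 kb. The longest ran over chr20:11104968-12226750 (1122 kb), with an isolated site at its right end, and the next over chr7:2783715-3843185 (1059 kb), with an isolated site at its left end. Across the 714.3 kb of chr14:18716416-19430678 an isolated site stood at either end.

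Isolated sites also followed one another. There were 439 with no isolated neighbour, while 362 were next to another isolated site, in 102 runs of 2, 27 runs of 3, 11 runs of 4, 3 runs of 5 and 3 runs of 6 sites. The rule bears on these counts, since the neighbour of an isolated site already has a gap over 100 kb on 1 side. No expected number of runs was computed. Over all 23368 sites, 75.2% had a WT 24 hpf site of both replicates and 8.11% a ctcf-/- peak of at least 1 replicate. The runs of 6 covered chr10:11809369-13247731, chr18:42072880-43334065 and chr7:62107282-63013552. The first of them held 6 sites in 1.44 Mb, at gaps of 122.6 to 442.5 kb, of which 5 had a WT 24 hpf site and none a ctcf-/- peak. The second held 6 sites in 1.26 Mb, of which 4 had a WT 24 hpf site and none a ctcf-/- peak. The third held 6 sites in 0.91 Mb, of which 5 had a WT 24 hpf site and 1 a ctcf-/- peak. These runs were picked for their length after their values were seen. Their sites were of mixed strength, with mean percentiles of 15.2 to 72.5, 17.6 to 97.3 and 36.4 to 93.2.

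Isolated sites occurred on all 25 chromosomes. Their number ranged between 11 on chromosome 4, counted up to 30 Mb, and 47 on chromosome 5. Per Mb, it ranged between 0.37 on chromosome 4 and 0.79 on chromosome 17, with a median of 0.64. The share of sites that were isolated was lower on chromosomes with more sites per Mb, with a Spearman's rho of -0.62 over 25 chromosomes. The rule ties the measures to each other, since a denser chromosome leaves fewer long gaps. Along the chromosome, 2.70% of the sites within 10% of the span from either end were isolated, against 4.71% of those at 10% to 25% from an end and 3.09% of those in the middle. These zones held 22.9%, 26.3% and 50.8% of the sites, and the rule ties isolation to site density here too. First and last sites of a chromosome, in the outer zone, could not be called isolated.

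**Figure D2:**
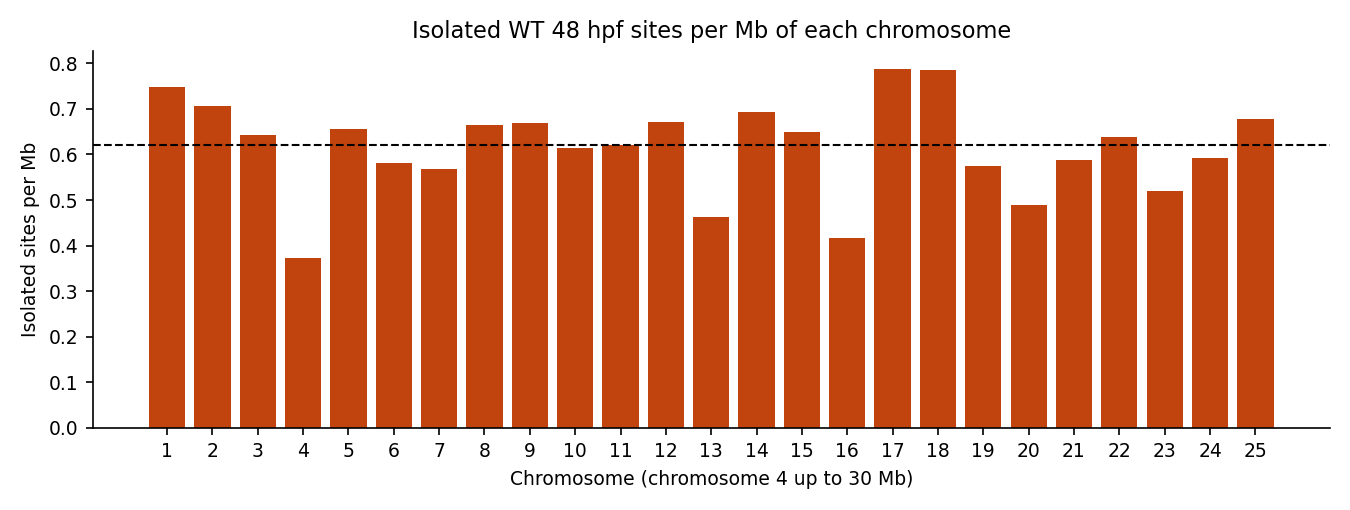
Isolated WT 48 hpf sites per Mb of each chromosome, with chromosome 4 counted up to 30 Mb. Bars are single values, and the dashed line is the value over all chromosomes, 0.62 per Mb. Chromosome 4 is lowest at 0.37 and chromosome 17 highest at 0.79.

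Isolation was defined on sites found in both replicates, and weaker peaks did lie in the gaps. Only 162 isolated sites (20.2%) had no WT 48 hpf peak of a single replicate within 100 kb, and the others had up to 9. These nearby peaks were weak, with a median percentile of 20.8 for the 621 of replicate 1 and 20.3 for the 857 of replicate 2. Their median pileup, the number of fragments at the summit, was 9 and 8. Above the median of their list were 45 of the 621 and 75 of the 857. Single-replicate peaks of the whole lists had similar median percentiles, 20.04 in replicate 1 and 21.2 in replicate 2.

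The 24 hpf lists, which the rule did not use, held further sites in these regions. A WT 24 hpf site of both replicates lay within 100 kb of 323 isolated sites (40.3%), apart from any 24 hpf site at the isolated site itself. A WT 24 hpf peak of either replicate lay within 100 kb of 786 (98.1%), mostly from replicate 1, the deepest library, with such a peak near 785 sites, against 444 for replicate 2. Of the gaps beside isolated sites, 38.8% held at least 1 of 737 WT 24 hpf sites. A ctcf-/- peak of either replicate lay within 100 kb of 137 isolated sites (17.1%), and no ctcf-/- site of both replicates did. Most ctcf-/- sites overlap a WT 48 hpf site, so the rule itself bears on this count. The counts of nearby peaks are not set beside counts at other sites or in other long gaps. They therefore do not tell whether these regions are rich or poor in such peaks.

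With the peaks of all 6 lists counted, 11 isolated sites had no other peak within 100 kb. Of these 11, 10 had a WT 24 hpf peak of their own, as had 96.6% of all sites. A WT 24 hpf site of both replicates overlapped 5 of them, against 75.2% of all sites. A ctcf-/- peak overlapped 1, against 8.11% of all sites. These 11 sites had mean percentiles between 29.6 and 94.5. They were picked after their values were seen. The strongest, at chr9:37938193-37938684 with gaps of 162.3 and 190.0 kb, had ctcf-/- pileups of 14 and 14, WT 48 hpf pileups of 66 and 65 and WT 24 hpf pileups of 73 and 32. Among them, the replicates of 24 hpf differed most at chr14:43540104-43540729, with a pileup of 101 and a percentile of 99.1 in replicate 1 and no peak in replicate 2. That site had WT 48 hpf pileups of 11 and 14.

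Isolated sites had about the same fold enrichment as other sites. Fold enrichment is the summit pileup plus 1, divided by the local background that MACS2 estimates around a peak plus 1. Equal values thus need not mean an equal plain ratio of pileup to background. Isolated sites had a median of 11.3 in WT 48 hpf replicate 1 and 11.4 in replicate 2, against 11.4 and 11.4 at other sites. Their median percentiles were 60.8 and 63.1, against 61.0 and 63.5. Spearman's rho was -0.05 between mean percentile and smaller gap over the 801 sites. The replicates ranked the isolated sites alike, with a rho of 0.78 between their fold enrichments, against 0.82 at other sites. Median width was 305 bp, against 318 bp, and the summits of the replicates lay a median of 23 bp apart, against 22 bp.

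The counts behind these ratios did differ. The median pileup was 18 and 17 fragments at isolated sites in WT 48 hpf replicates 1 and 2, against 22 and 21 at other sites. The median local background was 45.0 and 43.0 tags per 10 kb at isolated sites, against 65.0 and 63.0 at other sites. Ranked by −log10 q, which grows with the pileup at equal fold enrichment, the median percentiles were 57.7 and 59.8, against 61.3 and 63.8.

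The 24 hpf libraries gave differences of the same kind at the sites with a 24 hpf peak. In WT 24 hpf replicate 1 the median background was 91.0 tags per 10 kb at isolated sites, against 128.0 at other sites, and in replicate 2 it was 31.0, against 45.0. Both stages thus showed less background around isolated sites. Median percentiles differed in direction between the 24 hpf replicates, at 78.7 against 75.2 in replicate 1 and 59.7 against 63.1 in replicate 2.

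The background varied with distance over the whole set of sites. In WT 48 hpf replicate 1 its median was 86.0 tags per 10 kb where the nearest site was within 10 kb, 56.0 at 10 to 50 kb, 51.0 at 50 to 100 kb and 45.0 at isolated sites. Replicate 2 gave 84.0, 54.0, 49.0 and 43.0. The median pileup was 24, 20, 18 and 18 in replicate 1 and 23, 20, 18 and 17 in replicate 2. The median fold enrichment was lowest in the closest class, at 10.6 and 10.7, and highest at 10 to 50 kb, at 11.9 and 12.0. A local background counts fragments in windows up to 10 kb wide, so it takes in the fragments of the peak itself and, in the closest class, of its neighbours. What part this has in the differences was not tested.

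**Figure D3:**
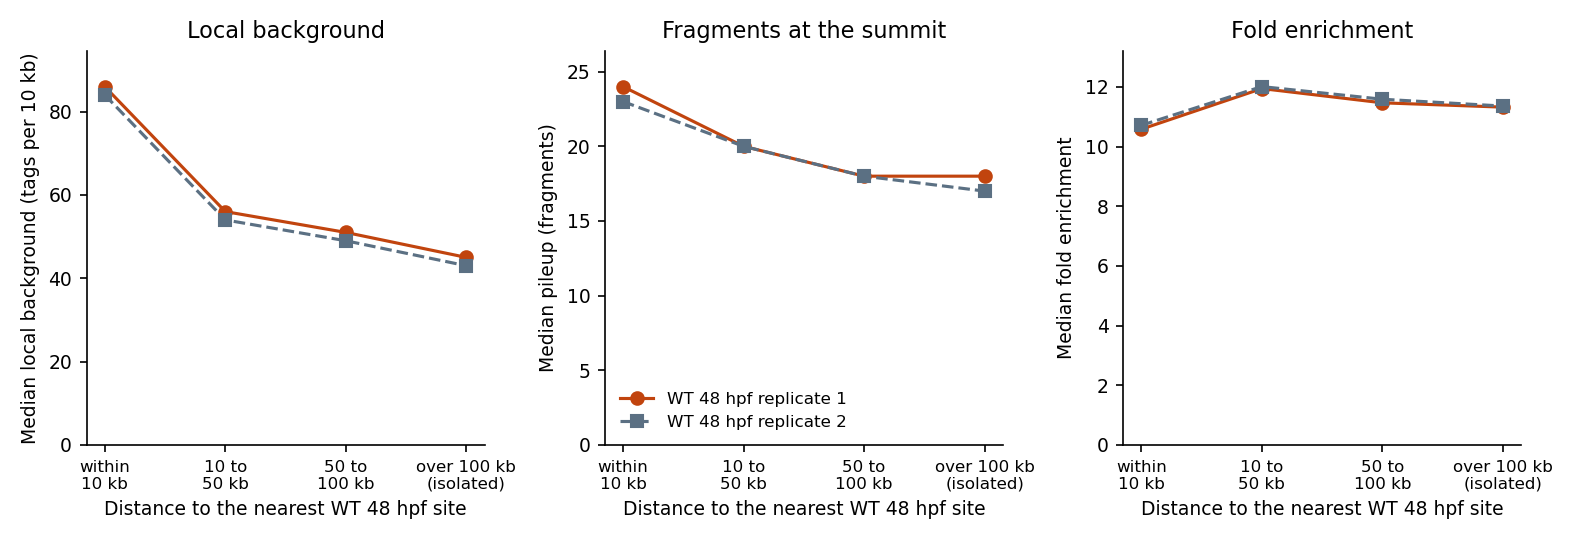
Median local background in tags per 10 kb, median summit pileup in fragments and median fold enrichment of WT 48 hpf sites by the distance to the nearest site, for replicate 1 (circles, solid line) and replicate 2 (squares, dashed line). Background is lowest at the isolated sites, at 45.0 and 43.0 tags per 10 kb, while fold enrichment stays between 10.6 and 12.0.

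The isolated sites with the largest smaller gap were all of modest strength. The most remote, chr3:2870928-2871106, lay 506.3 and 449.2 kb from its neighbours, and its WT 48 hpf fold enrichment was 8.47 and 7.17, from pileups of 10 and 8. It had no peak in a ctcf-/- or WT 24 hpf list. The next, chr19:16939623-16939856 (430.0 and 461.7 kb), had WT 48 hpf pileups of 8 and 10 and, at 24 hpf, a pileup of 34 in replicate 1 and no peak in replicate 2. The site chr2:18408955-18409171 (423.3 and 475.1 kb) ranked higher at 24 hpf than at 48 hpf, with percentiles of 46.6 and 36.7 at 48 hpf and 84.8 and 86.8 at 24 hpf. The sites chr7:5847196-5847364 (480.5 and 417.1 kb) and chr12:39647159-39647350 (402.1 and 662.7 kb) also had a 24 hpf site, with mean 48 hpf percentiles of 32.5 and 36.7. None of these 5 had a ctcf-/- peak, which only 8.11% of all sites had in at least 1 replicate.

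The 5 strongest isolated sites were chosen by their mean percentile in the WT 48 hpf lists, which fixes their high rank there. At chr23:6639743-6640134, with gaps of 135.6 and 112.9 kb, the WT 48 hpf fold enrichment was 33.9 and 32.9, and 32.9 is the highest value of its list. At chr20:53448808-53449172 (104.3 and 291.9 kb) it was 28.1 and 31.4, and at chr24:22889011-22889516 (124.3 and 226.0 kb) it was 29.7 and 26.8. At chr23:42316095-42316396 (195.7 and 373.6 kb) it was 26.9 and 30.4, and at chr5:4270553-4270842 (116.6 and 178.2 kb) it was 29.97 and 25.97. All 5 overlapped a WT 24 hpf site, and the first 2 also a ctcf-/- site. Sites of such strength mostly had a 24 hpf site. In the strongest of 5 classes of mean percentile, 97.5% of isolated and 98.6% of other sites overlapped a WT 24 hpf site. A ctcf-/- site of both replicates overlapped 10.7% and 10.9% of them.

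Next, the isolated sites were compared with the 24 hpf stage. A WT 24 hpf site of both replicates overlapped 579 of the 801 isolated sites (72.3%), against 75.3% of other sites and 75.2% of all 23368. The difference was -3.00 percentage points, and its direction depended on the lists: it was 2.99 points with 24 hpf replicate 1 shortened to its strongest peaks, as many as replicate 2 has, and -0.61 points with summits required within 100 bp. A WT 24 hpf peak of at least 1 replicate overlapped 773 isolated sites (96.5%), against 96.6% of other sites and 96.6% of all. The difference was seen with replicate 2 of 24 hpf, which overlapped 593 (74.0%), against 77.1% of other sites. Replicate 1 overlapped 759 (94.8%), against 94.6%. The replicates of 24 hpf thus stood much further apart than isolated and other sites did. Thinned to the depth of 24 hpf replicate 2, 95.8% and 96.8% of the isolated sites were expected past its threshold from WT 48 hpf replicates 1 and 2, against 96.5% and 97.5% of other sites.

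**Figure D4:**
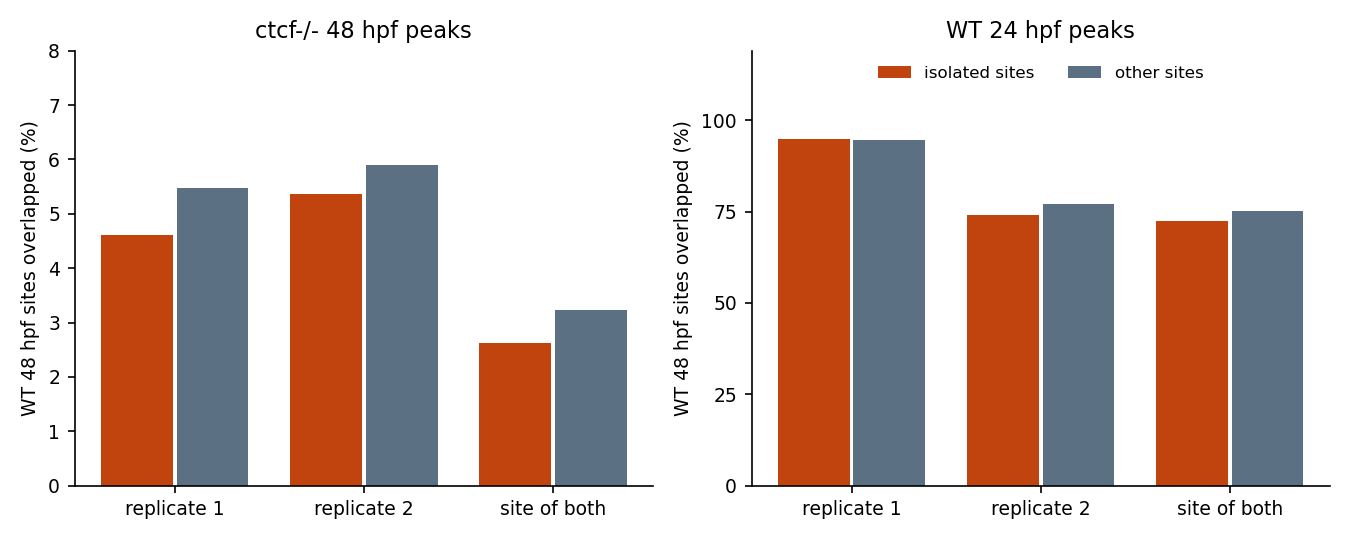
Share of isolated (red, left bars) and other (grey, right bars) WT 48 hpf sites overlapped by ctcf-/- peaks and by WT 24 hpf peaks, in percent, for replicate 1, replicate 2 and sites of both replicates. Each bar is a single share, and the panels have different axes. The isolated share is 2.62% against 3.23% for ctcf-/- sites and 72.3% against 75.3% for WT 24 hpf sites.

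Among the isolated sites, those with a peak in both 24 hpf replicates were the stronger ones. The median WT 48 hpf percentiles of the 579 were 71.5 and 72.6. The 180 with a peak in replicate 1 only had 38.8 and 42.4, and the 28 with no 24 hpf peak had 26.5 and 38.3. Another 14 had a peak in replicate 2 only. The summit of WT 48 hpf replicate 1 lay a median of 32 bp from that of 24 hpf replicate 1 and 26 bp from that of replicate 2, against 30 and 25 bp at other sites.

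Strength, as fold enrichment, was therefore matched in 5 classes of equal size, by the mean percentile over all 23368 sites. The 24 hpf lists were used as deposited and not shortened. The classes do not match pileup or q, on which the calling of a peak depends. In both WT replicates that define the sites, the median pileup was lower at isolated than at other sites. From the weakest to the strongest class, a WT 24 hpf site overlapped 40.7%, 61.7%, 73.6%, 90.0% and 97.5% of isolated sites. The same shares of other sites were 44.6%, 60.5%, 79.4%, 93.2% and 98.6%. The difference was negative in 4 of the 5 classes and widest in the middle one, at -5.78 points. What part the lower pileup of isolated sites has in this difference was not tested. The share did not follow the gap within the isolated sites, at 71.9%, 73.0% and 71.9% with the smaller gap in its lowest, middle and highest 267 sites. Sites with a long gap on 1 side only, 5444 in number, had 71.7%, and sites 50 to 100 kb from their nearest neighbour 70.5%.

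The 5 strongest isolated sites with no 24 hpf peak had mean WT 48 hpf percentiles between 56.2 and 75.6. At chr2:19088033-19088449, with gaps of 203.4 and 217.7 kb, WT 48 hpf fold enrichment was 14.9 and 13.4, from pileups of 20 and 21. At chr2:47454433-47454638 it was 14.0 and 12.2, and at chr23:11963550-11963814 it was 11.7 and 13.2. At chr5:59391550-59391774 it was 10.8 and 10.8, and at chr5:60364923-60365175 it was 8.33 and 13.9. None of these 5 had a ctcf-/- peak, which only 8.11% of all sites had in at least 1 replicate.

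Isolation itself was partly shared between the stages. By the same rule, 904 of 21958 WT 24 hpf sites (4.12%) were isolated. Of the 579 isolated WT 48 hpf sites with a 24 hpf site, 347 (59.9%) were isolated at 24 hpf too. Of the 904 isolated WT 24 hpf sites, 658 (72.8%) overlapped a WT 48 hpf site, against 79.5% of all WT 24 hpf sites. The remaining isolated WT 48 hpf sites had no 24 hpf site of both replicates, or had another one within 100 kb.

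In ctcf-/- embryos at 48 hpf, most isolated sites had no peak. A ctcf-/- peak of at least 1 replicate overlapped 59 isolated sites (7.37%), against 8.14% of other sites and 8.11% of all. A ctcf-/- site of both replicates overlapped 21 (2.62%), against 3.23% of other sites and 3.21% of all. Replicate 1 overlapped 37 (4.62%), against 5.47%, and replicate 2 overlapped 43 (5.37%), against 5.90%. These shares are near those of all sites. The 742 isolated sites with no ctcf-/- peak had median WT 48 hpf percentiles of 58.4 and 60.2.

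The ctcf-/- libraries were shallower, so the shares expected at their depth were computed. Thinned to the depth of ctcf-/- replicate 1, 80.5% of the isolated sites were expected past its threshold from WT 48 hpf replicate 1 and 83.8% from replicate 2. Thinned to replicate 2, for which the depth is an upper bound, 44.4% and 48.1% were expected. The observed shares, 4.62% and 5.37%, were below these values. The sites were chosen for passing the threshold in the same WT 48 hpf lists, which can raise the expected shares. At the depth of WT 24 hpf replicate 2 the calculation gave 95.8% and 96.8%, against 74.0% observed. It can thus exceed the observed share between WT libraries too. What part depth has in the ctcf-/- shares was not tested. Other sites gave expected shares of 83.0% and 85.9% for replicate 1, and 47.9% and 51.5% for replicate 2.

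The isolated sites with a ctcf-/- peak were mostly strong in WT. Depth bears on this, since weaker sites are less likely to pass the threshold in the shallower ctcf-/- libraries. Its part was not tested. From the weakest to the strongest class of WT 48 hpf strength, a ctcf-/- peak of at least 1 replicate overlapped 0, 6, 4, 10 and 39 isolated sites. In percent this is 0, 3.59, 2.70, 6.25 and 24.5, against 4.22, 1.66, 2.89, 6.96 and 24.9 of other sites. Here too the classes match fold enrichment and not pileup. The weakest class holds 167 isolated sites, and sites are not replicates, so no limit is set on the share behind this 0. Of the 190 other sites of that class with a ctcf-/- peak, 153 (80.5%) stood on a background 20 or more times the lowest of the list in a ctcf-/- library. The isolated sites with a ctcf-/- peak all lie outside the weakest class, so they are not matched in strength to these other sites. At the 37 with a peak in ctcf-/- replicate 1, the background in that list was at most 9.29 times its lowest. This leaves out ctcf-/- replicate 2, where the background was 14.7 times the lowest at the isolated site chr11:10677394-10677897. Isolated sites have no other WT 48 hpf site within 100 kb, and whether the rule bears on this contrast was not tested.

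**Figure D5:**
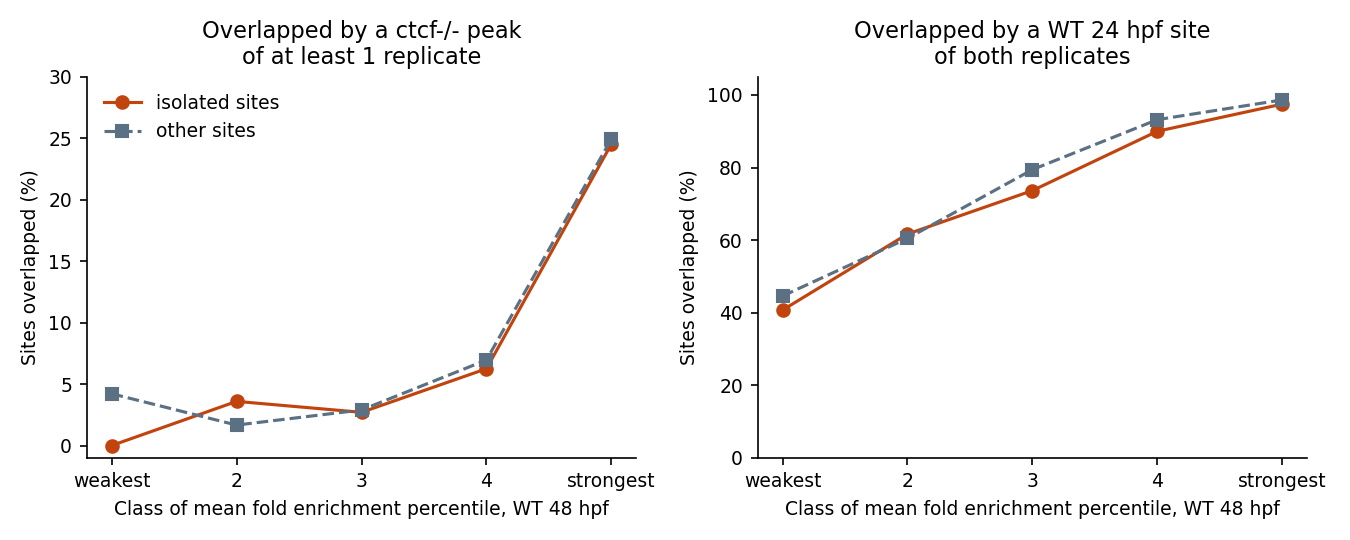
Share of isolated (circles, solid line) and other (squares, dashed line) sites overlapped by a ctcf-/- peak of at least 1 replicate and by a WT 24 hpf site, in percent, in 5 classes of the mean WT 48 hpf percentile of fold enrichment. Points are single shares. In the strongest class the isolated shares are 24.5% against 24.9% for ctcf-/- and 97.5% against 98.6% for WT 24 hpf, and in the weakest 0% against 4.22% for ctcf-/-.

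The 21 isolated sites with a ctcf-/- site of both replicates lay on 14 chromosomes. All 21 also overlapped a WT 24 hpf site, as did 56 of the 59 with any ctcf-/- peak. In the strongest class of WT 48 hpf strength, 97.5% of isolated and 98.6% of other sites did. The mean WT 48 hpf percentile of the 21 had a median of 92.7 and a range of 48.2 to 99.998, with 17 above the 80th percentile in both lists. At the 729 other sites with a ctcf-/- site the median was 92.5. The ctcf-/- pileups of the 21 had a median of 13 (6 to 33) in replicate 1 and 14 (6 to 41) in replicate 2. In WT 48 hpf the 21 had median pileups of 64 (13 to 149) and 65 (15 to 130). These pileups are not scaled for depth. The local background in ctcf-/- replicate 1 was 1.00 to 9.29 times the lowest of the list, and was at least 20 times it at 0 of the 21, against 131 of the 729 other sites (18.0%). The rule may bear on this 0, since a local background takes in nearby peaks and isolated sites have no other WT 48 hpf site nearby. This was not tested. In ctcf-/- replicate 2 the local background at the 21 was 2.50 to 14.7 times the lowest of that list.

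The 10 strongest of the 21 in WT 48 hpf are given by their pileups, as a description, since they were ranked on WT 48 hpf and the ctcf-/- libraries were shallower. At chr23:6639743-6640134 the pileups were 9 and 9 in ctcf-/-, against 121 and 108 in WT 48 hpf. At chr20:53448808-53449172 they were 11 and 20 in ctcf-/-, against 99 and 100 in WT 48 hpf. At chr11:10677394-10677897, with gaps of 177.5 and 145.3 kb, they were 23 and 41 in ctcf-/-, against 149 and 130 in WT 48 hpf. This last site had ctcf-/- percentiles of 98.3 and 99.5, the highest in both replicates among the 10 strongest of the 21.

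The others of these 10 follow. The pileups at chr5:58446238-58446797 were 20 and 12 in ctcf-/-, against 94 and 96 in WT 48 hpf. At chr24:2683022-2683512 they were 14 and 14, against 111 and 101 in WT 48 hpf. At chr20:17840218-17840742, chr17:52733640-52734109, chr23:41709107-41709579 and chr2:33693116-33693781, ctcf-/- pileups ranged between 6 and 17, against 53 to 94 in WT 48 hpf. The tenth is the site on chromosome 9 already described among those with no other peak nearby. Both ctcf-/- pileups lay below both WT 48 hpf pileups at 17 of the 21, including these 10, and the values met or overlapped at 4, which rank lower in WT 48 hpf and are named here after their values were seen.

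At these 4 sites the pileups of the genotypes were not separate, with no scaling for the lower depth of the ctcf-/- libraries. At chr12:21161660-21161932, with gaps of 264.7 and 260.7 kb, the pileups were 32 and 15 in ctcf-/-, against 26 and 15 in WT 48 hpf. At chr3:3320347-3320651 (449.2 and 386.4 kb) they were 13 and 26 in ctcf-/-, against 13 and 26 in WT 48 hpf. At chr5:59680896-59681178 they were 33 and 18 in ctcf-/-, against 36 and 29 in WT 48 hpf, and at chr2:15150965-15151652 they were 23 and 9, against 32 and 23 in WT 48 hpf. Their mean WT 48 hpf percentiles were 74.3, 48.2, 90.6 and 67.3.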

How the data were processed

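CTCF ChIPmentation peak lists of 6 libraries of whole zebrafish embryos were used, 2 replicates each of ctcf-/- at 48 hpf, WT at 48 hpf and WT at 24 hpf, grouped by their labels. The authors aligned reads to GRCz10 (danRer10) with Bowtie2, removed read pairs over 2 kb apart and called peaks in each library with MACS2 at an FDR of 0.001; an input control is not given in the sources used here. The deposited fold enrichment is not the plain ratio of the summit pileup to the local background, but the ratio defined in the Results. The deposited −log10 p and −log10 q belong to the summit. The deposited score, a multiple of −log10 q, was not used. None is normalized between libraries.

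Peaks of both replicates were merged where they overlapped by at least 1 bp. Pileup and background were solved from the deposited fold enrichment and −log10 p, within 0.002 for 100% of peaks in each list, and background was converted to tags per 10 kb with the narrowest peak as fragment length. Expected shares after thinning assume binomial loss of fragments at an unchanged fold enrichment. First and last sites of a chromosome, 49 in number, have no gap on 1 side and were not called isolated; 3 of them were over 100 kb from their neighbour. Named sites are the 5 with the largest smaller gap, the 5 strongest, the 10 strongest with a ctcf-/- site, the 5 strongest with no 24 hpf peak and the 3 on either side of the limit. The members, lists and alternatives were chosen with earlier results of these data known. The labels do not say whether replicates came from separate clutches. The merging of peaks into sites, the call of isolated sites, the overlaps and the solving of pileups were tested on simulated data. The thinning and the later summaries were not. Python 3.11.15, numpy 2.4.6, pandas 2.3.3, scipy 1.17.1 and matplotlib 3.10.9 were used.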

Additional observations from a re-analysis of the deposited data

How the results depend on the processing

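The number of isolated sites depended on the rule. It was 3221 at a distance of 50 kb, 107 at 200 kb and 162 with peaks of either WT 48 hpf replicate as neighbours, and 467 to 554 with 1 WT 48 hpf replicate left out, against 801. Stricter peak thresholds, chromosome ends and the rest of chromosome 4 kept it within 1.5 times. The share with a WT 24 hpf site was 96.5% with a 24 hpf peak of either replicate, and 46.9% without WT 48 hpf replicate 1 to 94.8% without WT 24 hpf replicate 2, against 72.3%. The difference from other sites was -0.13 points with a 24 hpf peak of either replicate, -0.61 with summits within 100 bp and 2.99 with 24 hpf replicate 1 shortened to the length of replicate 2, and -13.5 without WT 48 hpf replicate 1 to 0.13 without WT 24 hpf replicate 2, against -3.00. It was below 0 under 13 of 15 alternatives, and the cause of its changes was not tested. The share with a ctcf-/- peak was 6.77% at 50 kb, 6.75% and 6.67% at −log10 q of at least 5 and 10, 3.25% with a reciprocal overlap of 50%, 2.62% for ctcf-/- sites of both replicates and 4.33% to 5.37% with 1 replicate left out, against 7.37%. The median percentile was 74.3 at −log10 q of at least 10, 58.8 ranked by −log10 q and 41.9 to 43.1 with 1 WT 48 hpf replicate left out, against 61.9. No paired analysis was made, and no result comes from a test.

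Requiring a peak of each replicate also chose among lone peaks. Of the peaks over 100 kb from others of their own list, 377 of 554 in WT 48 hpf replicate 1 (68.1%) had a peak of the other replicate, against 78.1% of its other peaks. In replicate 2 this was 282 of 467 (60.4%), against 73.3%. The depth of ctcf-/- replicate 2 is known only as an upper bound, so the shares expected at its depth are upper bounds too.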
